A study of Mus musculus with 4 samples.

Results

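The state described here is that of mouse synovial fibroblasts given 3 agents together, IL-1β, indomethacin and iloprost, set against the resting dish. It rests on 2 of the 4 arrays of the series, chosen by their titles: the array of the dish with IL-1β at 5 ng/ml, indomethacin at 1 µM and iloprost at 1 µM, and the array of the vehicle dish. Per the labels, all dishes held cells taken from knees of healthy male DBA/1J mice of 8 to 12 weeks, passaged 3 to 4 times, kept in medium with 1% serum and harvested after 6 h. The other 2 dishes, with IL-1β alone and with IL-1β and indomethacin, are used only to place a level between these end points. The labels do not say from how many mice the cells came or whether the dishes were plated on one day. Each group is 1 array, so no value has an error between dishes, no test between groups was possible, and every difference describes these dishes. The arrays of the pair differ by 3 agents at once, so no difference between them belongs to 1 agent.

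IL-1β is a cytokine of joint inflammation whose receptor signals through MyD88 to NF-κB and the MAP kinases, which switch on cytokines, chemokines and matrix proteases in synovial fibroblasts. Among its targets is the inducible cyclooxygenase, which starts the synthesis of prostanoids. Indomethacin blocks that synthesis, and iloprost, a stable analogue of prostacyclin, replaces 1 of its products at the prostacyclin receptor. That receptor couples to adenylyl cyclase, so its signal runs through cAMP, protein kinase A and factors of the CREB family. Interferon-stimulated genes are a separate set, switched on by interferons through an element in their promoters called the ISRE.

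The vehicle and combined arrays had median signals of 35.2 and 39.4 over all probe sets, and 48.9% and 50.7% of probe sets lay at or above the floor. The floor is a signal of 37.6, the median of all values on the 4 arrays, and lower signals were set to it. Log2 ratios are combined over vehicle, after taking off the shift of the median gene, 0.09 on the log2 scale towards the combined array. Signals and their sums are given as deposited, with no shift taken off. Over vehicle, the shift was 0.23 for the IL-1β array and 0.08 for the array with IL-1β and indomethacin. A ratio against an array at the floor is a bound and is written as at least or at most. Ratios from different probe sets of 1 gene spread with an SD of 0.21, over 2345 genes, which measures the arrays and not the dishes.

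The label of fibroblasts was checked against marker genes. All 13 fibroblast markers were measured, with signals of 5698 and 5622 for the collagen gene Col1a2 and of 5712 and 5738 for the intermediate filament gene Vim with vehicle and with the 3 agents. The dishes also held RNA of macrophage genes. Of 14 macrophage markers, 13 were measured. Their summed signal as deposited was 28258 with vehicle, 32885 with IL-1β, 27854 with IL-1β and indomethacin, and 26470 with the 3 agents. The IL-1β array was brighter for the median gene as well, by 0.23 on the log2 scale, so its higher sum is no sign of more macrophage RNA. Lyz2 (lysozyme) stood at 5606 and 5342 and Csf1r, the receptor for macrophage growth factor, at 4015 and 3998, while Cd163 was below the floor on both arrays. All endothelial, lymphocyte, mast cell and muscle markers with a probe set were below the floor on both arrays. In bulk RNA, fewer cells of a type and less RNA per cell cannot be told apart.

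Of the 12393 genes on the array, 6985 were above the floor on at least 1 of the pair, and every count below is over these. Among them, 190 were at least 2-fold higher with the 3 agents (2.72%) and 234 at least 2-fold lower (3.35%). These shares over all measured genes are the background for each list count below. Most genes differed little: 5920 (84.8%) lay within 1.5-fold of the median gene. Past 4-fold were 38 genes on the high side (0.544%) and 60 on the low side (0.859%), and past 8-fold 12 (0.172%) and 16 (0.229%). Only Cytip and Arg1 were past 16-fold higher (0.0286%), while 6 genes were past 16-fold lower (0.0859%): Ccl12, Cxcl10, Cxcl9, Ifit2, Cmpk2 and Cxcl11. Among the genes that were higher, 50 were at the floor with vehicle, and among those that were lower, 29 were at the floor with the 3 agents. With a higher floor, at the 65th percentile of values, 32 of 150 genes named by rule fell short of 2-fold, among them Ccl20, Tnfsf11, Nr4a2, Has1, Mmp10, Mmp19, Serpinb2, Pgf, Tgfb2, Kitl, Il18bp, Tbxas1, Slc40a1 and Tlr8.

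**Figure D1:**
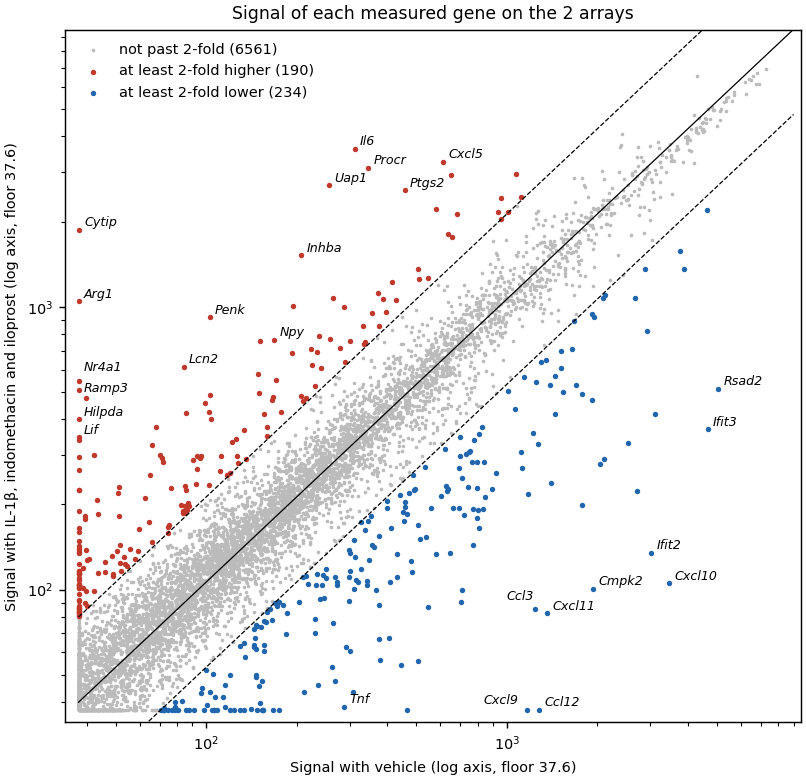
Signal of each of 6985 measured genes with vehicle (x axis) and with IL-1β, indomethacin and iloprost (y axis), both on log axes with signals below 37.6 drawn at 37.6. The solid line is the median gene and the dashed lines mark 2-fold; 190 genes in red lie above the band and 234 in blue below it, with the lowest (Ccl12, Cxcl9) at the floor.

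The inflammatory genes that stood highest began with cytokines. Il6 read 312 in the resting dish and 3617 in the combined dish, a log2 ratio of 3.45 or 10.9-fold, beside 4757 with IL-1β alone and 3496 with IL-1β and indomethacin. The resting dish alone was low for Il6, and the other 3 dishes were all high. Of 18 measured cytokine genes, 6 were past 2-fold higher and 4 lower, with a list median of 0.53 against 0.02 for all measured genes. Lif, a cytokine of the IL-6 family, was below the floor at 35.0 with vehicle and at 346 with the 3 agents, a ratio of at least 3.11. Tslp and Il33, both alarmins, were at least 2.88 and at 1.95, and Il11, also of the IL-6 family, and Tnfsf11 (RANKL, the osteoclast factor) were at least 2.25 and 2.05. The 4 cytokine genes past 2-fold lower were Tnf at -2.98, Il18 at -1.53, Il15 at -1.27 and Kitl, the ligand of KIT, at -1.12, which was -0.45 when its probe sets were averaged. Tnf read 287 at rest, 187 with IL-1β, 244 with IL-1β and indomethacin, and 38.5 with the 3 agents, so only the dish with iloprost was near the floor. Il1b itself had signals of 894 and 1323, a ratio of 0.48, although the IL-1β dish stood at 3952 and the indomethacin dish at 3121. Csf1, the macrophage growth factor, was at 0.05 and Il1rn, the IL-1 receptor antagonist, at 0.70.

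Chemokine genes were split by family. In a list of CXC chemokines headed by ligands of CXCR2, the neutrophil receptor, 3 of 5 measured genes were past 2-fold higher. Cxcl5 had signals of 615 at rest, 4360 after IL-1β, 3613 when indomethacin was added and 3252 when iloprost was added as well, a ratio of 2.31. Sets of 4 signals below keep that order of dishes. Cxcl1 was at 2.07 and Ppbp at a bound of at least 1.07, while Cxcl2 was at 0.39 and Pf4, which is no CXCR2 ligand, at 0.09. All 3 ligands of CXCR3, which attract activated T cells, were on the low side. Cxcl10 had signals of 3478 with vehicle, 3119 with IL-1β, 3576 with IL-1β and indomethacin, and 105 with the 3 agents, 35.2-fold lower than at rest. Cxcl9 had 1168, 371, 688 and 2.9, a ratio of at most -5.05, and Cxcl11 was at -4.13. In each of these genes the dish with iloprost lay below the other 3. Of 15 measured genes in a list of other chemokines, 4 were lower, Ccl12 (at most -5.18), Ccl3 (-3.96), Ccl4 (-2.31) and Ccl5 (-1.93), and 1 was higher, Ccl20 at 1.70. Ccl2, the main monocyte chemokine, had signals of 4200 and 4771, a ratio of 0.09, and Cxcl12, the ligand of CXCR4, was at 0.13.

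Hyaluronan is a large sugar polymer of joint fluid, built from UDP-sugars. Of 12 measured genes for its synthesis and binding, 6 were past 2-fold higher and 0 lower, with a median of 0.91. Uap1, which makes UDP-N-acetylglucosamine, had signals of 256 with vehicle, 2156 with IL-1β, 248 with IL-1β and indomethacin, and 2689 with the 3 agents, a ratio of 3.30. The vehicle and indomethacin dishes were nearly equal and low, and the IL-1β dish and the combined dish were both high. Gfpt2, the first enzyme of the hexosamine route, was at 2.15, Ugdh, which makes UDP-glucuronic acid, at 1.85, and the synthases Has2 and Has1 at 1.35 and at least 1.34. Vcan, the hyaluronan-binding proteoglycan versican, was at 1.24, while Ugp2, which makes the UDP-glucose that Ugdh uses, was at 0.42 (signals of 513 and 731), the receptor Cd44 at 0.17 and the binding protein Tnfaip6 at 0.59.

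In cAMP signalling and among immediate-early factors, Nr4a1 and Crem, like Uap1, were high with IL-1β and with the 3 agents. They were lower with vehicle and with IL-1β and indomethacin. Nr4a1, an orphan nuclear receptor, had signals of 34.1 with vehicle, 897 with IL-1β, 75.8 with IL-1β and indomethacin, and 549 with the 3 agents, a ratio of at least 3.78. Its relative Nr4a2 was at least 1.34, and its signals were high in the same dishes. Crem, which encodes a CREB-family repressor that ends cAMP responses, had 68.0, 233, 90.6 and 376, a ratio of 2.38, and was the only 1 of 14 measured genes of the cAMP list past 2-fold, the list median being 0.28. The regulatory subunit gene Prkar1a was at 0.27, and Creb3 and the cyclase gene Adcy7 at -0.48 and -0.42. Of 20 measured immediate-early genes, 4 were past 2-fold higher, including the AP-1 part Fosl1 (at least 1.89) and Ier3 (1.34), which stayed high in the indomethacin dish at 138 and 1286, and 1 was lower, Atf3 at -2.18. Averaged over its probe sets Fosl1 was at 0.90, short of 2-fold. Fos was at 0.45 and Jun at 0.45.

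Another set of genes was highest in the combined dish itself. Cytip, a binding partner of cytohesins that acts in leukocyte adhesion, had signals of 26.2 with vehicle, 119 with IL-1β, 31.2 with IL-1β and indomethacin, and 1876 with the 3 agents, a ratio of at least 5.55. Arg1, the arginase of alternatively activated macrophages, had 0.9, 86.8, 15.7 and 1045, at least 4.71. Cd207, the lectin langerin, had 39.7, 66.9, 41.0 and 475, a ratio of 3.49. The combined dish stood apart from all the other dishes in each of the 3 genes. Ramp3, a partner of the adrenomedullin receptor, was at least 3.67, the lipid droplet gene Hilpda at least 3.32 and Havcr2, which encodes the inhibitory receptor TIM-3, at least 3.08. Npy, a neuropeptide, had signals of 168, 196, 84.2 and 765, a ratio of 2.10. Cd83 (1.05) and Cd207 were the only measured genes of 8 dendritic and Langerhans cell markers, and the other 6, among them Itgax, Flt3 and Ccr7, were below the floor on both arrays. That list summed to 234 with vehicle and 825 with the 3 agents, and its part in the other results was not tested.

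**Figure D2:**
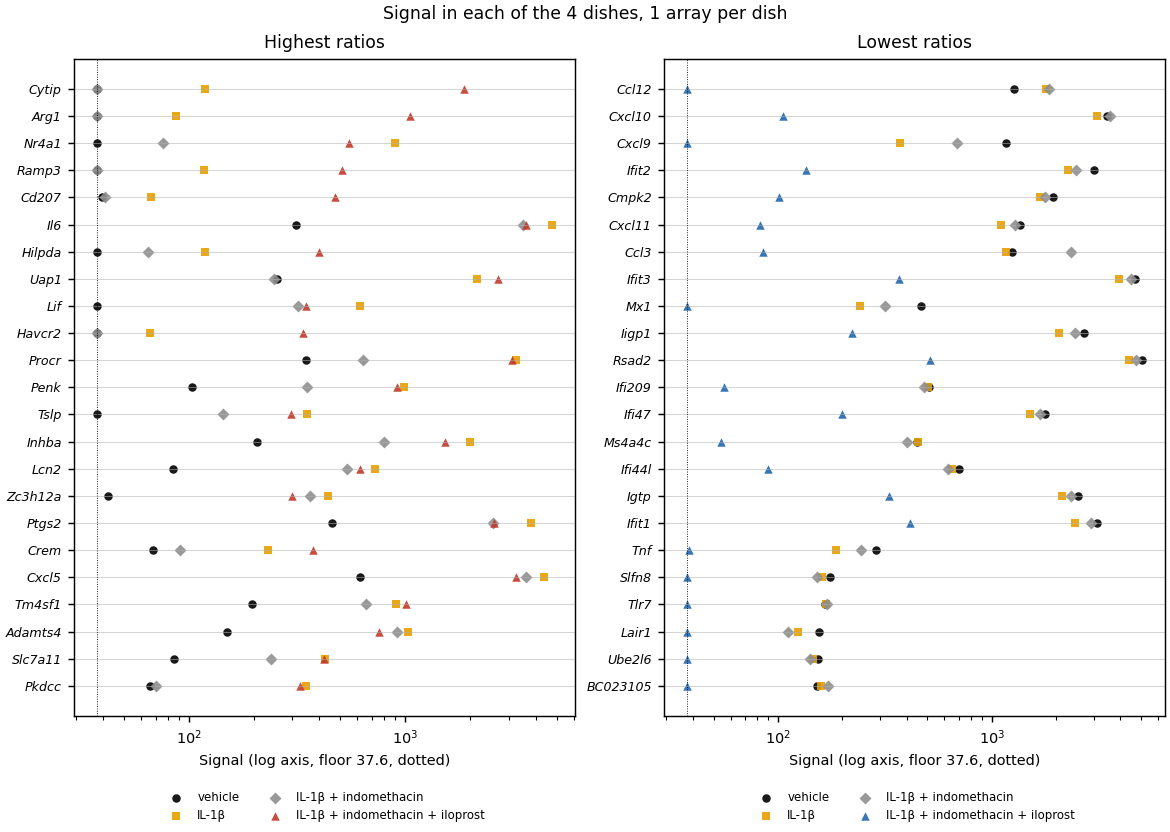
Signals in each of the 4 dishes (log axis, as deposited, drawn at the floor of 37.6 when lower) for the genes with the highest ratios (left) and lowest ratios (right) of the combined dish over vehicle, 1 point per array. On the right Cxcl10 stands at 105 in the combined dish against 3119 to 3576 in the others; on the left it lies near IL-1β alone for genes such as Procr and far above it for Cytip and Arg1.

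Interferon-stimulated genes were nearly all on the low side. Of 38 measured genes, 34 were past 2-fold lower, 0 were higher, and all 38 lay below the median gene, with a median of -2.04; over all measured genes 3.35% were lower. Ifit2, an antiviral RNA-binding protein, had signals of 3020 with vehicle, 2285 with IL-1β, 2479 with IL-1β and indomethacin, and 135 with the 3 agents, 23.8-fold lower. Cmpk2, a nucleotide kinase next to Rsad2, had 1936, 1680, 1775 and 101, a ratio of -4.35. Rsad2 (viperin) had 5042, 4368, 4740 and 514, a ratio of -3.38. In these genes the resting dish was already bright and only the dish with iloprost was dim. Ifit3 was at -3.75, Mx1 at most -3.72 and Ifi209 at -3.26, and 3 transcription factors of the pathway were past 2-fold lower too, Irf7 at -2.25, Stat2 at -2.03 and Irf1 at -1.59. The 4 genes not past 2-fold lower were Lgals3bp (-0.82), Irf9 (-0.58), Ifi27l2a (-0.34) and Oas1b (at most -0.20). Of 9 measured interferon-inducible GTPases, which attack the vacuoles of microbes, 8 were past 2-fold lower, with a median of -2.52, among them Iigp1 (-3.69), Ifi47 (-3.25) and Igtp (-3.03). Gbp2, the ninth, was at -1.0, just short of 2-fold.

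Promoters of the genes that were lower held the ISRE more often. The RefSeq promoter table of build GRCm38.p6, from 250 bases before to 50 after each start, matched 188 of the 234 lower genes, 146 of the 190 higher genes and 5710 of the 6985 measured genes. The motif searched, on both strands, was TTTC, any 2 bases and TTTC again. It was found in 37 of 249 promoters of lower genes (14.9%), in 5 of 189 of higher genes (2.65%), in 245 of 7406 of measured genes (3.31%) and in 1131 of all 32851 promoters of the table (3.44%). Genes that were bright with vehicle and not past 2-fold had it in 3.12% of 3944 promoters. Among lower genes outside both interferon lists, 19 of 211 promoters had it (9.0%), including those of Cxcl10, Ddx60 and Trim21, and among those on the lists 18 of 38 (47.4%). The lists are not complete, and genes outside them may be interferon-stimulated too. No chance test was made of these shares. The stretches below carry the match in capitals and end before the annotated start, for the 6 lowest of the genes named by rule that have a match before the start.
Cxcl10, chr5:92349073-92349122, minus strand: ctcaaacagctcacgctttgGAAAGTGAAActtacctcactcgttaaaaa
Ifit3, chr19:34583353-34583436, plus strand: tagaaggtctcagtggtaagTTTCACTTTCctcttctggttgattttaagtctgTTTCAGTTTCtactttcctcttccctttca
Rsad2, chr12:26456543-26456592, minus strand: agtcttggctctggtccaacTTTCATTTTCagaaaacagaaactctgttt
Igtp, chr11:58199502-58199551, plus strand: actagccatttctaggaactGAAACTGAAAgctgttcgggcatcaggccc
Ifit1, chr19:34640765-34640833, plus strand: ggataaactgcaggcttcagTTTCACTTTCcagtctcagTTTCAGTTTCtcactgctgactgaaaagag
Irgm2, chr11:58214893-58214942, plus strand: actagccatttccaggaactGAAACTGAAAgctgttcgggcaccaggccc
Ifit3 and Ifit1 each have 2 matches. The Igtp and Irgm2 stretches are identical at 48 of 50 bases, so they are not independent examples. Of the 5 higher genes with a match, Cytip had the largest ratio, and its match lies in a run of thymines (chr2:58160270-58160319, minus strand):
Cytip: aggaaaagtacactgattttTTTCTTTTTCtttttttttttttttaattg

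The same search was made for motifs of the other pathways. The κB motif, GGGA, any base and then TTTCC or TTCCC, on both strands, was in 5 promoters of 3 higher genes (2.65%), Il6, Cxcl1 and Ppt2, in 4 promoters of 3 lower genes (1.61%), Cxcl10, Tlr3 and Casp4, and in 1.03% of promoters of measured genes. It is shown for an interleukin and a chemokine that stood higher and for a chemokine that stood lower, since all 3 carry it.
Il6, chr5:30013050-30013099, plus strand: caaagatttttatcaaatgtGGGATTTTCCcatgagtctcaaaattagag
Cxcl1, chr5:90891154-90891203, plus strand: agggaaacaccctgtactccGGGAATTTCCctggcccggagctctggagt
Cxcl10, chr5:92348963-92349012, minus strand: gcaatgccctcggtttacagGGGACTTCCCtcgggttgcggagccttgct
The cAMP response element TGACGTCA was in 2.65% of promoters of higher genes, 2.81% of lower genes and 2.98% of measured genes, close to the same share in each. Its half-site TGACG, which the full element contains, was in 31.7%, 23.3% and 32.6%. Nr4a1 has 4 half-sites, which read CGTCA on this strand, in the stretch chr15:101266596-101266830, plus strand:
Nr4a1: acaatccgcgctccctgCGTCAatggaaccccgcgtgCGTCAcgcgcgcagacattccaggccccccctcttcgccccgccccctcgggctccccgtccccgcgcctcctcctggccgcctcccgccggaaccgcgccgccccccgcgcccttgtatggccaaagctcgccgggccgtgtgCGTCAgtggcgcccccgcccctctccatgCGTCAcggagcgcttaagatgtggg

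**Figure D3:**
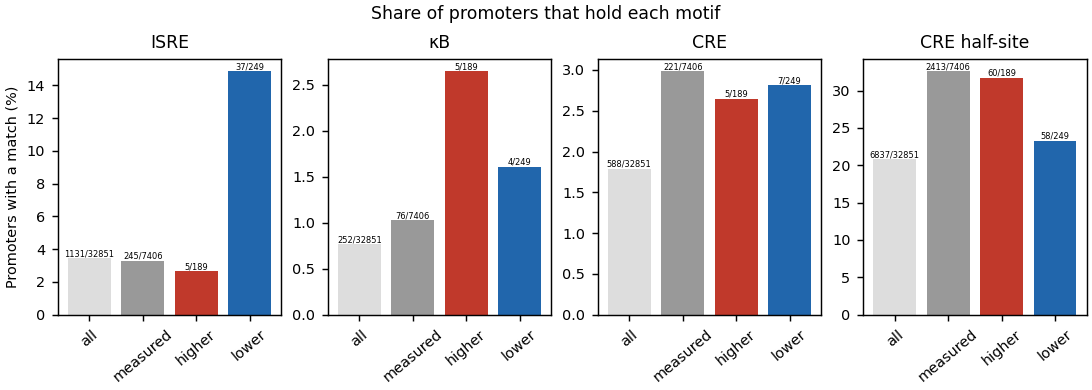
Percent of promoters that hold each motif, in all promoters of the RefSeq table, in those of measured genes, and in those of genes at least 2-fold higher or lower with the 3 agents; numbers above bars are promoters with a match over promoters searched, and the 4 y axes differ. The ISRE bar of the lower genes (14.9%) exceeds the others (2.65% to 3.44%), while the CRE bars of higher, lower and measured genes lie between 2.65% and 2.98%.

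Genes of immune recognition lay on the low side in part. Of 12 measured genes for MHC class I and peptide loading, 6 were past 2-fold lower, with a median of -1.03 for the list. These 6 were the transporters Tap1 (-2.16) and Tap2 (-1.60), the peptide-loading gene Tapbpl (-1.13) and the immunoproteasome subunits Psmb9 (-1.93), Psmb10 (-1.88) and Psmb8 (-1.37). Averaged over all their probe sets, Tap1 and Tapbpl were both at -0.61, short of 2-fold. The class I chains themselves differed little, with H2-K1 at -0.16 (signals of 4323 and 4122), H2-D1 at -0.26 and B2m at -0.28. Of 12 measured genes for Toll-like receptors and co-receptors, 3 were lower and 0 higher, with a median of -0.45. All 3 lower genes encode endosomal sensors: Tlr3 for double-stranded RNA at -2.58, and Tlr7 (at most -2.24) and Tlr8 (-1.13) of the single-stranded RNA class. Averaged over its probe sets, Tlr7 was at -0.81, short of 2-fold. Tlr2, a sensor of lipoproteins, was at -0.59 and Cd14 at 0.52. Among 15 measured TNF receptor and costimulation genes, Cd40 (-2.36) and Cd274, which encodes PD-L1 (-1.46), were lower, and Havcr2 and Cd83 higher. Leukocyte adhesion genes as a list were not on the low side. Of 13 measured, 1 was past 2-fold higher, Cytip, and 0 lower, with a median of 0.02, 7 above the median gene and 6 below. In that list Icam1 and Vcam1 had ratios of -0.95 and -0.66, short of 2-fold, and Itgav was at 0.62. Icam1 had 1330.4, 1654, 1791 and 732 across the dishes.

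Of the 13 measured macrophage markers, 3 were past 2-fold lower, the Fc receptor gene Fcgr1 (-1.45), Adgre1, which encodes F4/80 (-1.05), and the oxidase subunit gene Cybb (-1.0), 0 were higher and the median was -0.28. The other 10 ranged from Aif1 at -0.97 to Cd14 at 0.52, with Lyz2 at -0.16 and Csf1r at -0.10. Adgre1 and Cybb lay close to 2-fold and were short of it with values as deposited, at -0.96 and -0.91. The part of these markers in the lower interferon, Toll-like receptor and chemokine genes was not tested.

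Among NF-κB genes, 17 lay below the median gene and 8 above it, and few passed 2-fold. Of all measured genes 53.3% lay above it. Of 25 measured, 2 were past 2-fold higher and 1 lower, with a median of -0.23. Zc3h12a, which encodes the mRNA-cutting enzyme regnase-1, was at 2.74, Nfkbiz at 1.06 and the lower gene, Tank, at -1.31. Nfkbiz was short of 2-fold at 0.96 when its probe sets were averaged and at 0.98 without a floor. Nfkbia, the inhibitor IκBα, had signals of 4499 and 4253, and Sod2, the mitochondrial superoxide dismutase, was at 0.19. In the IL-1 receptor pathway, the receptor Il1r1 was at 1.11 with signals of 102, 207, 115 and 235 across the dishes. Its partner Il1rap was at 0.19, the decoy receptor gene Il1r2 was below the floor on both arrays, the protease gene Casp1 was at -1.66 and the IL-18 inhibitor gene Il18bp at -1.99. Socs3, the feedback inhibitor of IL-6 signals, was at 1.46 and Lifr, the receptor for LIF, at -2.37, the only 2 of 17 measured SOCS, STAT and JAK genes past 2-fold. Lifr was at -0.85 when its probe sets were averaged, short of 2-fold.

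Prostanoid genes went both ways. Of 12 measured genes of the prostanoid enzyme list, 2 were past 2-fold higher and 2 lower, with a median of 0.44. Among 4 measured prostanoid receptor genes, 1 was lower and 0 higher, with a median of 0.05. Over all measured genes 2.72% were higher and 3.35% lower. Ptgs2, the inducible cyclooxygenase, had signals of 457 with vehicle, 3798 with IL-1β, 2547 with IL-1β and indomethacin, and 2579 with the 3 agents, a ratio of 2.41. Pla2g4a, the phospholipase that frees arachidonic acid, was at 1.21, Ptges, which makes prostaglandin E2, at 0.97 and Ptgis, which makes prostacyclin, at 0.48. Tbxas1, thromboxane synthase, was at -1.46 and Hpgds, a prostaglandin D synthase, at most -1.19, both with combined signals within 2 units of the floor. Ptgir, the prostacyclin receptor to which iloprost binds, had signals of 159, 168, 211 and 83.0, a ratio of -1.02 that fell short of 2-fold under 3 of 9 alternative settings, and Ptger4, a prostaglandin E2 receptor, 346, 379, 786 and 228, a ratio of -0.69. Ptger2, another prostaglandin E2 receptor, was at least 0.88, and Ppard, a nuclear receptor that prostacyclin analogues can bind, was below the floor on both arrays.

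Genes past 2-fold higher numbered 4 of 14 metalloproteinases and TIMPs, 3 of 11 ADAMTS genes and relatives and 4 of 16 coagulation genes, beside 2.72% of all measured genes. Of 14 measured metalloproteinase and TIMP genes, 4 were past 2-fold higher and 0 lower: Mmp10 (at least 1.55) and Mmp3 (1.24), both stromelysins, Mmp19 (1.09) and the elastase Mmp12 (1.07). Mmp3 had 959, 3891, 3520 and 2415 across the dishes, so it was higher in all dishes with IL-1β than at rest. Mmp19 was highest in the combined dish, at 75.0, 71.7, 56.6 and 170. Timp1 was at 0.66 and the aggrecanase Adamts4 at 2.24, with Adamts1 at 1.32 and Adam8 at 1.12 the other 2 of 11 measured ADAMTS and relatives past 2-fold. Of 16 measured coagulation and fibrinolysis genes, 4 were higher. Procr, the endothelial protein C receptor, had signals of 347 with vehicle, 3265 with IL-1β, 640 with IL-1β and indomethacin, and 3097 with the 3 agents, a ratio of 3.07. Thbd, thrombomodulin, its partner in protein C activation, was at 2.0, the urokinase receptor gene Plaur at 1.6 and the inhibitor gene Serpinb2 at least 1.37. F3, tissue factor, which starts coagulation, was the 1 gene lower, with 744, 336, 522 and 231 and a ratio of -1.78.

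In the lists of growth factors and peptides given here, genes past 2-fold were mostly on the high side. Inhba, an activin subunit, had signals of 207, 1983, 796 and 1523 across the dishes, a ratio of 2.79. Penk, which encodes enkephalins, had 103, 983, 351 and 917, a ratio of 3.07. For both, indomethacin's dish lay between rest and the other 2. In the list of 8 measured neuropeptide and receptor genes, 5 were higher and 1 lower, Calcrl, the receptor that Ramp3 partners, at -1.51. Ereg and Hbegf, ligands of the EGF receptor, were at least 2.73 and at 1.53 (Hbegf 0.98 when its probe sets were averaged), and Vegfa, Pdgfa and Pgf, growth factors of vessels and stroma, at 1.64, 1.36 and at least 1.20. Id3 and Tgfb2 were at 1.27 and 1.36. With Inhba they were the 3 higher genes of 22 measured in the activin, BMP and TGF-beta list. That list had 0 lower and a median of 0.11. Among EGF receptor ligands 2 of 6 measured genes were higher, and among angiogenic growth factors 3 of 14, with 0 lower in each. Over all measured genes 2.72% were higher. Rspo2, an enhancer of Wnt signals, was the only 1 of 11 measured Wnt genes past 2-fold, with 849, 297, 453 and 213 and a ratio of -2.08.

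Metabolic genes on the high side included those of lactate export, lipid droplets and cystine uptake. Over all measured genes 2.72% were past 2-fold higher. Of 28 measured glycolysis and hypoxia genes, 7 were past 2-fold higher, 0 lower and 25 above the median gene, with a median of 0.54. They included Mxi1, a MYC antagonist (2.12), the lactate exporter Slc16a3 (2.02), Vegfa, Ddit4, an mTORC1 inhibitor (1.27), and Bnip3, a mitophagy receptor (1.21), while enzymes of the pathway such as Ldha, Pgk1 and Aldoa were at 0.48, 0.22 and 0.12. Mxi1 had 98.7, 154, 95.6 and 458 across the dishes, and so was highest in the combined dish. Scd1 and Elovl5, which desaturate and lengthen fatty acids, were at 1.58 and 1.38. They were the 2 of 22 measured sterol and fatty acid genes past 2-fold (Elovl5 0.96 from its probe set brightest with vehicle). Of 21 measured lipid storage and efflux genes, 3 were past 2-fold higher and 1 lower, with a median of -0.03. Plin2, a lipid droplet coat, was at 1.0. It was short of 2-fold under several settings, as at 0.96 with the floor at the 25th percentile. Lpl, lipoprotein lipase, had signals of 3902, 3103, 4176 and 1360, a ratio of -1.61. Slc7a11, the cystine importer, was at 2.22, Slc16a1, a lactate carrier, at 1.94 and the retinol dehydrogenase gene Rdh10 at 1.97. Lcn2, a siderophore-binding lipocalin, was at 2.78, the metalloreductase gene Steap4 at 1.87, the zinc importer gene Slc39a14 at 1.49 and the iron exporter gene Slc40a1 at most -1.48.

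**Figure D4:**
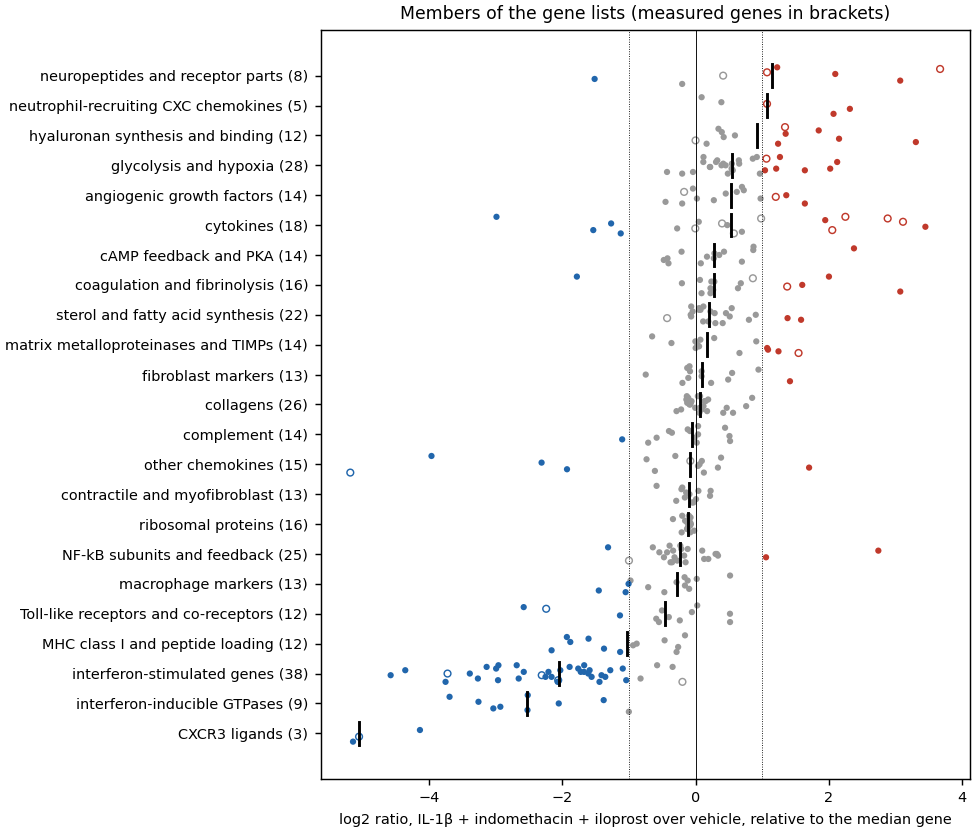
Log2 ratios of the combined dish over vehicle, relative to the median gene (x axis), for the measured members of 23 gene lists (rows, number measured in brackets); red and blue points are past 2-fold (dotted lines), open circles are bounds and black bars are list medians. Interferon lists and CXCR3 ligands lie left of -1 almost whole, whereas collagens and ribosomal proteins cluster at 0 with no member past 2-fold.

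Structural genes differed little. Of 26 measured collagen genes 0 were past 2-fold, with a median of 0.06 and a range from -0.29 to 0.85. Of 13 contractile genes 0 were past 2-fold (median -0.09, Acta2 at -0.05), and of 16 ribosomal protein genes 0, all between -0.34 and -0.02, although their median was 0.0073 after quantile normalization. The matrix list had 2 of 33 higher, Sdc1, a syndecan (1.34), and tenascin C, Tnc (1.11), with fibronectin Fn1 at -0.13 and Sparc at -0.11. Of 13 fibroblast markers 1 was higher, Pdpn, a surface mucin, with 637, 1281, 905 and 1810 across the dishes and a ratio of 1.42. Cell cycle genes had 1 higher, Mcm2 (1.29), and 1 lower, Ccnd1 (cyclin D1, -1.20), of 29. These counts lie near the shares of all measured genes, 2.72% higher and 3.35% lower. The Mcm2 value comes from a probe set that can bind other transcripts, and was 0.11 without such probe sets and 0.13 with a higher floor. With 1 array per group a small difference cannot be told from the spread between dishes, which is unknown here.

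Some genes were high with IL-1β alone and in the combined dish and low in the indomethacin dish. They were looked for with a pair of ratios that share no array: the combined dish over vehicle, and IL-1β over IL-1β with indomethacin. Neither ratio sets the combined dish against the indomethacin dish, so a gene high in both need not show the whole pattern. Lif, high in both, had 35.0, 618.5, 320.3 and 345.6 across the dishes. The pair of ratios was measured for 6774 genes. Of 186 genes past 2-fold higher in the first ratio, 64 (34.4%) were also past 1.5-fold higher with IL-1β than with IL-1β and indomethacin, which is 39.5% of the 162 genes of that kind, and over all genes the share was 2.39%. In the opposite direction were 3 of the 186, Mmp10, Lmcd1 and Phldb1. The 64 were led by Nr4a1 (3.42 in the second ratio), Uap1 (2.97), Il11 (at least 2.57), Stc1, the hormone stanniocalcin (at least 2.31), Tnfsf11 (at least 2.26), Procr (2.20), Pkdcc, a secreted kinase (2.16), and Rdh10 (1.97). Il6, Ptgs2 and Cxcl5 were at 0.30, 0.43 and 0.12 in the second ratio, which places them outside. Of 233 genes past 2-fold lower in the first ratio, 0 were past 1.5-fold higher with IL-1β than with indomethacin added and 22 (9.44%) were lower, which is 20.6% of 107 genes and compares with 1.58% of all genes. The lowest of the 22 were Ccl4 (-1.36), Ccl3 (-1.17) and Cxcl9 (-1.04), and Ifit2 and Cxcl10 were at -0.27 and -0.35. Across 6227 genes above the floor on every array, the ratios correlated with Pearson's r of 0.35 and Spearman's rho of 0.27. These genes were read from the same arrays and are not independent replicates.

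**Figure D5:**
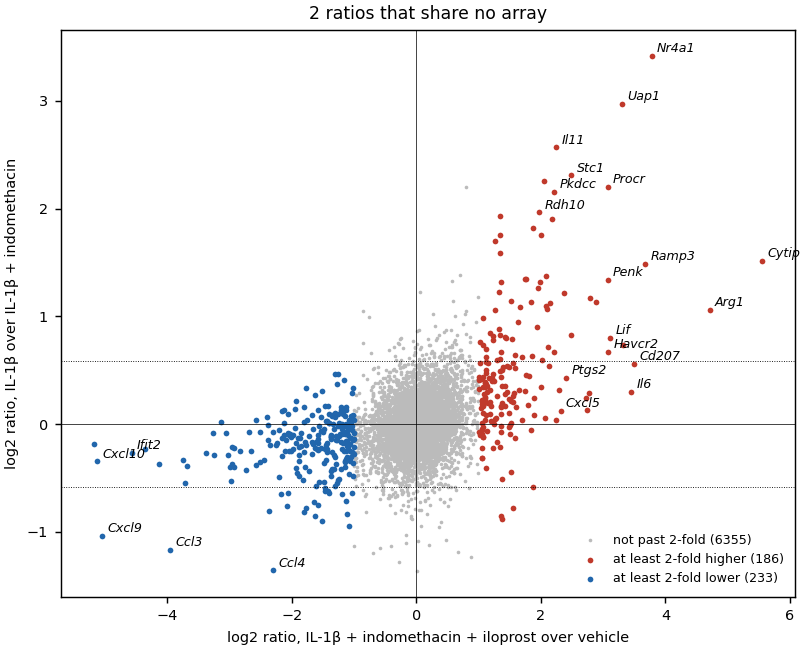
Log2 ratio of the combined dish over vehicle (x axis) and of IL-1β over IL-1β with indomethacin (y axis), each relative to the median gene, for 6774 genes; dotted lines mark 1.5-fold on the y axis. Of the red genes (186), 64 lie above the upper dotted line, with Nr4a1 and Uap1 at the top, and of the blue genes (233) 22 lie below the lower one and 0 above the upper one.

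Genes that were lower together were in part neighbours in the genome. In the RefSeq order of measured genes, 9 runs of at least 3 consecutive genes were all past 2-fold lower. These runs held 28 of the 234 lower genes. They included Cxcl9, Cxcl10 and Cxcl11, then Ifit2, Ifit3 and Ifit1, then Psmb9, Tap1, Psmb8 and Tap2, and Ifi209, Ifi204 and Ifi202b. Runs of higher genes numbered 3, among them Mmp12, Mmp3 and Mmp10, and held 9 of the 190 higher genes. Genes in a run are often copies of one another, and probe sets can bind more than 1 copy, so neighbours are not independent observations.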

How the data were processed

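Per the labels, RNA of each dish was hybridised to an Affymetrix GeneChip. The deposited values are linear intensity values, 1 per probe set and array. No source used here names the software behind them or a scaling. Of 22690 probe sets, 20380 were no control and named 1 gene in the platform annotation, which gave 12393 genes. Left out were 691 with several genes, 1606 unnamed and 13 further control probe sets that name 1 gene. RefSeq (GRCm38.p6) changed 0 symbols. Each gene was read from its probe set of highest average log2 signal, over 4 arrays. The median gene is the median log2 signal of 6227 genes that passed the floor on all arrays.

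Genes named by rule were the 15 highest and 15 lowest ratios with a signal of at least 113.2 on the brighter array (70th percentile) and both arrays above the floor, up to 8 per direction at the floor on 1 array, up to 6 list members per direction past 2-fold, up to 3 bright members of each list short of it, and the agents' receptors and enzymes. Chosen after their values were seen were Aif1, Cd163, Itgax, Flt3, Ccr7, Stc1, Ddx60, Trim21, Lmcd1, Phldb1, Ppt2, Casp4, Oas1b, Irf1, Irf7, Stat2, Ifi204, Ifi202b and the genes of the closing observations. The 58 lists and their members were chosen with earlier results of these data known. Of 154 genes named by rule and past 2-fold, 33 had another probe set above the floor on both arrays. Of those, 0 went past 1.5-fold the other way. A probe set marked as able to bind more than 1 transcript was the source for 36 of the 154, among them Cytip, Procr, Cmpk2 and Mcm2. Without such probe sets 127 of the 154 were still measured, and 3 of these fell short of 2-fold. The steps were tested on simulated data. Python 3.11.15, numpy 2.4.6, pandas 2.3.3 and scipy 1.17.1 were used. Alternatives were other floors, scalings and probe set choices.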

Additional observations from a re-analysis of the deposited data

How the results depend on the processing

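The counts depend on the floor. With the floor at the 25th percentile 400 genes were past 2-fold higher and 454 lower, with more genes near background measured, and at the 65th percentile 118 were higher and 170 lower. Under the other planned settings the counts ran from 153 to 220 higher and from 184 to 270 lower. As deposited, without centring, they were 220 and 206, so 51.6% of calls were higher against 44.8% in the main setting. Of 154 named genes past 2-fold, 4 no longer were as deposited, 2 after quantile normalization, 32 of 150 with the higher floor, 15 without a floor and 14 with the mean over all probe sets of a gene, which takes in dim ones; there Tap1 was at -0.61, Lifr at -0.85, Tlr7 at -0.81 and Slc20a1 at 0.77. Pgf changed sign, to -0.00087 with the floor at the 65th percentile, where its signal with the 3 agents, 92.1, lies just above the floor. Dbp, Plin2 and Cybb, near 2-fold, were short of it under 4 or 5 settings and Ptgir under 3. Mcm2, at 1.29, was short under 4, at 0.11 without shared probe sets. Among lists, the signs of those with a median within 0.21 of the median gene flipped in places, as for prostanoid receptors, at -0.69 with the higher floor; the medians of the interferon, CXCR3 ligand, hyaluronan, glycolysis and cytokine lists kept their sign under all 9 alternatives. No paired analysis was possible because each group has 1 array. Signals near the floor limit the ratios, since they bound and shrink them.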

Other observations

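Genes of myeloid cell surfaces and signalling outside the lists went both ways with the 3 agents; they were picked after their values were seen. Slamf9 had signals of 806 with vehicle, 781 with IL-1β, 783 with IL-1β and indomethacin, and 165 with the 3 agents, a log2 ratio of -2.38. Cd48, a leukocyte adhesion ligand, was at -2.40, Themis2, a signalling adaptor, at -2.92, the scavenger receptor gene Marco at -1.63 and the phosphatase gene Ptpn6 at -1.54. On the high side, Csf2rb, the common receptor chain for GM-CSF, IL-3 and IL-5, had 39.4, 125, 68.9 and 182, a ratio of 2.12, and its relative Csf2rb2 was at 1.88. Fcgr3, an activating Fc receptor, was at 1.43, Trem1, an amplifying receptor, at least 1.52 and Cd300a, an inhibitory receptor, at least 1.51. The inhibitory Fc receptor gene Fcgr2b was at -1.31, with 1655, 2444, 2054 and 710.

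Among other genes picked after their values were seen, Odc1, the first enzyme of polyamine synthesis, had signals of 258, 509, 319 and 769 in the same order of dishes, a ratio of 1.49, and Smox, spermine oxidase, was at 1.86. Dio2, which activates thyroid hormone, was at 1.99, the vitamin D receptor gene Vdr at least 1.76 and the aryl hydrocarbon receptor gene Ahr at 1.48. On the low side, Gch1, the first enzyme of tetrahydrobiopterin synthesis, was at -2.01, Ch25h, cholesterol 25-hydroxylase, at -1.52 and Acod1, which makes itaconate, at -1.40.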
